A study of Mus musculus with 8 samples.

Results

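A lone pyrimidine triplet is a stretch of 3 pyrimidines bounded by purines, in a probe that has no other adjacent pyrimidines on either strand. There are 5 triplets in which no thymines touch: TCT with T at both ends, CTC with T in the middle, TCC with T in front, CCT with T at the back, and CCC with none. Of the 122095 different sequences printed on the arrays, 1901 carry exactly 1 of these triplets and nothing else that could form a dipyrimidine. They were chosen by sequence alone: the last 24 bases had to be the commonest 24 of the array, and the only run of pyrimidines, on the printed strand or its reverse complement, had to be 3 bases long and free of TT. The triplet lies on the printed strand in 912 members and on the complementary strand in 989. On the printed strand there were 168 members with TCT, 199 with TCC, 178 with CTC, 174 with CCT and 193 with CCC, and on the complementary strand 188, 213, 194, 187 and 207 in the same order.

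The arrays carry DNA probes of 60 bases and were stained with a mouse antibody against 1 of the 2 main UV lesions. The 4 groups had 2 arrays each: UV-treated arrays stained for cyclobutane pyrimidine dimers (CPDs) at an antibody dilution of 1:400, untreated arrays stained the same way, UV-treated arrays stained for pyrimidine (6-4) pyrimidone photoproducts (6-4PPs) at 1:80, and untreated arrays stained that way. The sources used here give neither the UV dose nor whether and how a second strand was made. The 2 antibodies were used at different dilutions, so levels are read within an antibody.

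UV light joins neighbouring pyrimidines of 1 strand. In a CPD the neighbours are held by a small carbon ring, while in a 6-4PP a single bond links them and the 3′ base is turned out of its normal plane. TT is the step best known for CPDs, and TT and TC are the steps best known for 6-4PPs. Lesions that include cytosine are known as a source of the C-to-T changes that mark sunlight-exposed genomes. In a triplet the middle base belongs to both steps and can enter only 1 lesion, so a lone triplet is the shortest setting in which steps share a base: TCT holds TC and CT, CTC holds CT and TC, TCC holds TC and CC, CCT holds CC and CT, and CCC holds CC in both places.

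The members differ only within their first 25 bases, since the last 35 are the same in all of them. The sequences below are shown because within a set they differ in the triplet alone. Between sets they differ in the base before the triplet or in its strand, and also in its place in the probe. The triplet and the bases beside it are the features the results turn on. Capitals mark the triplet, and all are written 5′ to 3′ along the printed strand. In the first set the triplet follows an A.
TCT after A: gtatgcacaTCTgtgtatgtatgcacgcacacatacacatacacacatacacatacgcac
TCC after A: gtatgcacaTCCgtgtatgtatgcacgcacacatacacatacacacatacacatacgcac
CTC after A: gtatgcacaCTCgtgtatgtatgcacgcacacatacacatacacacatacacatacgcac
CCT after A: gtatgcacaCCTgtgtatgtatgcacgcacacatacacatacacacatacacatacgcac
CCC after A: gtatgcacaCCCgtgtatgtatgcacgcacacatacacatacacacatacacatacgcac
In the second set, of which the first 25 bases are given, the triplet follows a G.
TCT after G: gtatgcacacgTCTgtatgtatgca
TCC after G: gtatgcacacgTCCgtatgtatgca
CTC after G: gtatgcacacgCTCgtatgtatgca
CCT after G: gtatgcacacgCCTgtatgtatgca
CCC after G: gtatgcacacgCCCgtatgtatgca
In the third set the capitals are the reverse complement of the triplet named, which lies on the other strand and there follows an A.
TCT on the complement: gtatgcacacAGAtgtatgtatgca
TCC on the complement: gtatgcacacGGAtgtatgtatgca
CTC on the complement: gtatgcacacGAGtgtatgtatgca
CCT on the complement: gtatgcacacAGGtgtatgtatgca
CCC on the complement: gtatgcacacGGGtgtatgtatgca
The probe without any step that lay nearest to the median of such probes begins as follows.
No step: gtgtatacacacgtgtatgtatata

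Staining of the 550 probes without a dipyrimidine step was the base line. Their median adjusted intensity with the CPD antibody was 1625 and 1614 on UV arrays, against 1220 and 1051 on non-UV arrays, and with the 6-4PP antibody 1972 and 1975 on UV arrays, against 1500 and 1253 on non-UV arrays. A UV effect is here the log2 intensity on UV arrays minus that on non-UV arrays, after the median of these 550 probes was subtracted on each array, so that 0 means the same change as a probe with no step. On this scale the median UV effect of all 122095 sequences was 1.11 for CPD and 1.71 for 6-4PP, so the members are a dim corner of the array. Errors are limma's standard errors (SE) with 2 arrays per group, and a call is a Benjamini-Hochberg adjusted p under 0.05 from limma. The labels do not say that the arrays of a group were separate preparations, and all arrays carry the same probes, so these p-values measure the spread between these arrays and not the spread between probes. Arrays of the same UV state and replicate number deviated from their group means together although they were stained with different antibodies, with a Pearson correlation over the members of 0.718 for UV arrays and 0.762 for non-UV arrays (Spearman 0.432 and 0.440). With those pairs as a random block, an alternative chosen after seeing the data, the member counts were 255 for CPD and 1055 for 6-4PP against 265 and 1051 without it. Among the members, the 2 replicate UV arrays were more than 4-fold apart at 14 members for CPD and 15 for 6-4PP, 8 of them shared, and the 2 non-UV arrays at 34 for CPD and 30 for 6-4PP, 21 of them shared.

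The CPD antibody gave only faint staining of lone triplets, and the 4 printed triplets that hold a T rose, as did TCT on the complement. Printed TCT had the largest CPD effect, 0.26 (SE 0.049), followed by CTC at 0.23 (SE 0.034), CCT at 0.17 (SE 0.034) and TCC at 0.09 (SE 0.034). Printed CCC was at 0.01 (SE 0.034) and did not pass. Of the complementary classes TCT alone passed, at 0.09 (SE 0.036), and the other 4 lay between 0.03 and 0.06. Thus 5 of the 10 member classes rose, where 79% of the 248 classes of lone runs did and 0.403% fell. The adjusted p from limma was 0.00122 for printed TCT, 0.000210 for CTC, 0.00145 for CCT, 0.0326 for TCC and 0.0414 for TCT on the complement. In simulated data on the 248 classes, changes of 0.25 were recovered in 100% of cases. That result does not cover smaller changes, and the classes that did not pass had smaller effects. The call of printed TCC was lost without any 1 of the 4 CPD arrays (effects 0.08 to 0.11, limma adjusted p 0.0520 to 0.195), and that of TCT on the complement without any 1 array other than the second CPD UV array (0.08 to 0.10, limma adjusted p 0.0509 to 0.149).

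The intensities show how small these CPD effects were. Printed TCT had class medians of 1973 and 1890 on UV arrays, against 1230 and 1042 on non-UV arrays, and both UV values lay above the 1625 and 1614 of probes with no step. Printed CTC had 1937 and 1889 on UV arrays, against 1244 and 1044 on non-UV arrays. Printed CCC had 1665 and 1650 on UV arrays, against 1252 and 1052 on non-UV arrays. The excess over probes with no step was 312 ± 51.5 (SD, n = 2) for TCT, 294 ± 26.3 for CTC, 215 ± 25.8 for CCT, 138 ± 19.0 for TCC and 38.2 ± 3.10 for CCC on UV arrays. The same excess without UV was 0.358 ± 12.9, 8.34 ± 22.0, 7.15 ± 18.8, 13.5 ± 21.4 and 15.9 ± 22.1 in the same order. For CCC the values with and without UV overlapped within their spread. Printed TTC, which holds TT, reached 7537 and 7283 on UV arrays, and printed CTT 6324 and 5637.

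Between triplets on the printed strand, TCT and CTC differed by 0.02 with the CPD antibody, within the error (SE 0.044, limma adjusted p = 0.673). CTC lay above CCT by 0.06 (SE 0.016, limma adjusted p = 0.0146), above TCC by 0.14 and above CCC by 0.22. TCC lay above CCC by 0.08 (SE 0.014, limma adjusted p = 0.00225), but below the lone TC step it contains, by 0.05 (SE 0.017, limma adjusted p = 0.0295). CCT lay below lone CT, by 0.11 (SE 0.015), and above lone CC, by 0.12 (SE 0.018). For TCT the difference from lone CT was -0.02 (SE 0.033) and from lone TC 0.11 (SE 0.044), and neither passed. The calls of CTC over CCT (without either CPD non-UV array, limma adjusted p 0.0531 and 0.0734) and of TCC under lone TC (without either CPD non-UV, the first CPD UV or either 6-4PP non-UV array, 0.0506 to 0.148) were lost. Over pairs of probes identical outside the triplet, chosen after seeing the data, CTC over CCT was 0.04 (limma adjusted p = 0.213) and TCC over CCC 0.06 (limma adjusted p = 0.0612), and neither passed. CTC minus CCT turned to -0.10 with the dimmest 25% of probes left out (limma adjusted p = 0.240). In the linear excess, printed triplets had less than the sum of their 2 steps with the CPD antibody: the ratio was 0.640 ± 0.026 (SD, n = 2) for TCT, 0.628 ± 0.031 for TCC, 0.605 ± 0.021 for CTC, 0.560 ± 0.020 for CCT and 0.332 ± 0.052 for CCC. These ratios have no test, and the mix of flanking bases differs between triplets and steps. The non-UV excess was not subtracted. The excess of printed CCC was 38.2 ± 3.10 with UV and 15.9 ± 22.1 without, so its ratio compares values near the base line. The 4 flank combinations were also weighted equally, a choice made after seeing the data. The ratio was then 0.587 ± 0.0035 for TCT, 0.501 ± 0.030 for TCC, 0.529 ± 0.032 for CTC, 0.622 ± 0.029 for CCT and 0.307 ± 0.015 for CCC. All stayed under the sum, but CCT turned from the lowest of the triplets that hold a T to the highest.

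Probe by probe the CPD call was made for few members. Of the 1901 members, 224 rose and 41 fell, while 1636 did not pass. Over all sequences 70.5% rose and 0.473% fell. On the printed strand 57 of 178 CTC members, 50 of 168 TCT, 39 of 174 CCT, 20 of 199 TCC and 2 of 193 CCC rose. Among complementary members the counts were 12 of 194 CTC, 17 of 188 TCT, 12 of 187 CCT, 5 of 213 TCC and 10 of 207 CCC. Among the 550 probes with no step, 15 rose and 12 fell. In the simulation, single probes changed by 0.25 or 0.5 were recovered in 0% of cases and those changed by 1 in 16%, so a missing call on a single probe says little at this size. Without any 1 of the 4 CPD arrays the members called numbered 127 (first non-UV array left out), 100 (second non-UV), 146 (first UV) and 175 (second UV). The direction depends on what an array is centred on. Relative to the median of all probes on an array, 1833 members and all 10 classes were lower after UV. With no centring 1444 members were higher and 0 lower, and under quantile normalization, which gives all 8 arrays 1 distribution, 18 were higher and 20 lower and no class passed.

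The 6-4PP antibody separated the 5 triplets widely. Printed CTC stained most, with an effect of 1.76 (SE 0.034), which is 3.38-fold, and TCC followed at 1.50 (SE 0.034). TCT reached 0.62 (SE 0.049), CCT 0.51 (SE 0.034) and CCC 0.21 (SE 0.034). For complementary triplets the order was the same at a lower level, with 0.88 for CTC, 0.79 for TCC, 0.28 for TCT, 0.17 for CCT and 0.08 for CCC. These orders pool the flanking bases. With a G before them, TCC and TCT lay below CCT on either strand. With the 4 combinations of flanking bases weighted equally, chosen after seeing the data, TCC was at 0.98 printed and 0.51 on the complement, still between CTC (1.74 and 0.87) and TCT (0.59 and 0.24). All 10 member classes rose, where 98.8% of the 248 classes of lone runs did and 0% fell. The limma adjusted p was 4.76e-10 for printed CTC, 7.27e-10 for TCC, 1.85e-06 for TCT, 5.26e-07 for CCT and 0.000305 for CCC, and 0.0454 for CCC on the complement. This last call was lost without any 1 array other than the CPD UV arrays (0.07 to 0.09, limma adjusted p 0.0705 to 0.171).

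The intensities themselves show the spacing. Printed CTC had class medians of 6733 and 6673 on UV arrays, against 1525 and 1256 on non-UV arrays. Printed TCC had 5640 and 5731 on UV arrays, against 1548 and 1277 on non-UV arrays. Printed TCT had 2941 and 3279 on UV arrays, against 1519 and 1288 on non-UV arrays. On UV arrays the ranges of CTC, TCC and TCT did not overlap, and each stood above the 1972 and 1975 of probes with no step. Printed CCT had 2826 and 2872 on UV arrays, against 1531 and 1270 on non-UV arrays, below both values of TCT. The difference of TCT from CCT was 0.11 (SE 0.035, limma adjusted p = 0.0208), and it was lost without the first non-UV or the second UV 6-4PP array (0.05 and 0.09). Its sign went with the base before the triplet. After an A, TCT had effects of 1.04 (ATCTA) and 0.99 (ATCTG), against 0.71 (ACCTA) and 0.48 (ACCTG) for CCT. After a G, TCT had 0.18 (GTCTA) and 0.16 (GTCTG), against 0.51 (GCCTA) and 0.39 (GCCTG) for CCT. Printed CCC had 2277 and 2301 on UV arrays, against 1533 and 1249 on non-UV arrays. Without UV the printed classes lay within 1519 to 1548 on 1 array and within 1249 to 1288 on the other.

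Of the 1901 members, 1036 rose and 15 fell with the 6-4PP antibody, and 850 did not pass. Over all sequences 86% rose and 0.203% fell. On the printed strand 173 of 178 CTC members rose, as did 144 of 199 TCC, 126 of 174 CCT, 98 of 168 TCT and 50 of 193 CCC. The middle 80% of members ran from 1.16 to 2.38 for printed CTC, from 0.04 to 2.07 for TCC and from -0.03 to 1.27 for TCT, so CTC was bright nearly throughout whereas TCC and TCT each held members near the base line. On the complementary strand 167 of 194 CTC, 133 of 213 TCC, 77 of 188 TCT, 38 of 187 CCT and 30 of 207 CCC rose. Relative to the array median the split was 59 higher and 1612 lower, with no centring 1676 higher and 1 lower, and under quantile normalization 168 higher and 13 lower, with 4 of the 10 classes past the threshold.

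The order of the bases went with large 6-4PP differences. TCC, CTC and CCT have the same bases, and the class median of CCT lay far below both. TCC exceeded it by 0.99 (SE 0.016) and CTC by 1.25 (SE 0.016, limma adjusted p = 5.94e-10). After an A, printed TCC had effects of 1.70 (ATCCA) and 1.79 (ATCCG), against 0.71 (ACCTA) and 0.48 (ACCTG) for CCT. After a G the order of TCC and CCT turned, with 0.18 (GTCCA) and 0.24 (GTCCG) against 0.51 (GCCTA) and 0.39 (GCCTG). TCT and CTC hold the same 2 steps, TC and CT, in opposite order, and the difference of TCT from CTC was -1.14 (SE 0.044, limma adjusted p = 1.96e-07). TCT also lay below the lone TC step that it contains, by 0.58 (difference -0.58, SE 0.044, limma adjusted p = 7.73e-06), although a lone TC has 1 pyrimidine fewer. It lay above lone CT by 0.31 (SE 0.033). CTC lay above lone TC by 0.55 (SE 0.014, limma adjusted p = 2.43e-08) and above lone CT by 1.45 (SE 0.018). TCC lay above lone CC by 1.40 (SE 0.014). Its class median lay above that of lone TC by 0.30 (SE 0.017), but with the 4 flank combinations weighted equally the difference was 0.03 (limma adjusted p = 0.144) and the call was lost. Weighted so, TCC lay above CCT by 0.46 and above lone CC by 0.87, and TCT below lone TC by 0.36 (difference -0.36), and these still passed. CCT lay above lone CC by 0.41 (SE 0.018) and above lone CT by 0.20 (SE 0.015), and CCC above lone CC by 0.11 (SE 0.014). Of the 63 differences between classes, 36 were higher and 26 lower (57.1% and 41.3%) for 6-4PP, against 12 higher and 27 lower (19% and 42.9%) for CPD.

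The linear excess over probes with no step shows the place of TCT as well. Printed TCT had 1137 ± 237 (SD, n = 2) units of 6-4PP excess on UV arrays, lone TC 2580 ± 16.3 and lone CT 469 ± 43.5, so TCT reached 0.372 ± 0.074 of the sum of its steps. CTC, made of the same steps, reached 1.55 ± 0.028 of that sum. The ratio was 1.35 ± 0.033 for TCC, 1.39 ± 0.037 for CCT and 0.975 ± 0.072 for CCC. With the 4 flank combinations weighted equally, chosen after seeing the data, the ratio of TCC was 0.997 ± 0.034, so its excess was about the sum of its steps, while TCT had 0.406 ± 0.0026, CTC 1.66 ± 0.066, CCT 1.41 ± 0.094 and CCC 0.952 ± 0.074. On the complementary strand it was 0.374 ± 0.085 for TCT, 1.51 ± 0.066 for CTC, 1.31 ± 0.079 for TCC, 1.58 ± 0.020 for CCT and 0.687 ± 0.11 for CCC, and 0.958 ± 0.025 for TCC with equal weights. TCT was the lowest of the 5 on both strands, and no test was made of these ratios.

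The difference of printed CTC from TTC, which has the TT step, was lower for CPD than for 6-4PP, by 1.59 (difference -1.59, SE 0.026, limma adjusted p = 5.54e-09). Printed CTC lay below TTC by 1.96 for CPD (difference -1.96, SE 0.019) and by 0.37 for 6-4PP (difference -0.37, SE 0.019). This last difference turns with the summary used: it was 0.17 with the mean over probes in place of the median, and 0.28 with the mean of the 4 flank contexts, chosen after seeing the data. Over 157 pairs of probes identical outside the triplet, also chosen after seeing the data, it was -0.11 (SE 0.055, limma adjusted p = 0.0834). As complementary triplets, CTC lay above TTC by 0.17 (SE 0.035, limma adjusted p = 0.00259) and by 0.30 over 179 identical pairs. TCC on the complement lay 0.08 above TTC (SE 0.030, limma adjusted p = 0.0362), and this call was lost over identical pairs, at 0.03 (limma adjusted p = 0.392), and without either CPD non-UV, either 6-4PP non-UV or the first 6-4PP UV array (0.07 to 0.09).

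With a G before them, TCC and TCT stained little above the base line with the 6-4PP antibody. Only A and G can flank a lone run, and an A on the 5′ side gave TCC a UV effect 1.51 log2 units above a G there (SE 0.031, limma adjusted p = 6.59e-08, 124 and 75 probes). For TCT the A-over-G difference was 0.84 (SE 0.030), for CTC 0.45 (SE 0.029), for CCC 0.13 (SE 0.033) and for CCT 0.11 (SE 0.026). Lone TC had 1.42 (SE 0.027). Over 64 pairs of probes identical outside that base, chosen after seeing the data, CCT had 0.08 (limma adjusted p = 0.0912) and did not pass. The printed TCC, TCT, CTC and CCC did pass over such pairs. Where T opens the triplet, the flank touches the TC step, and in CTC a C stands between them. The flank effect of TCC exceeded that of CTC by 1.06 (SE 0.030, limma adjusted p = 1.40e-07) and that of TCT by 0.67, and it exceeded that of lone TC by 0.09 (SE 0.031, limma adjusted p = 0.0361). Of 60 such differences between flank effects, chosen after seeing the data, 41.7% were higher and 43.3% lower for 6-4PP. On the complementary strand A over G was 0.90 (SE 0.039) for TCC, 0.42 (SE 0.031) for TCT and 0.34 (SE 0.028) for CTC. Counting both sides of the 10 member classes, 12 of 20 A-over-G differences were higher and 2 lower, where 56.4% of 241 were higher and 2.49% lower over all lone runs. The 5′ call of printed CCC was lost without the first non-UV or the second UV 6-4PP array (0.12 and 0.10), and that of CCC on the complement, 0.09, without any 1 of the 8 arrays (0.07 to 0.10).

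With both flanks spelled out, TCC had 6-4PP effects of 1.70 as ATCCA and 1.79 as ATCCG, against 0.18 as GTCCA and 0.24 as GTCCG. In the context ATCCG the medians were 6924 and 7075 on UV arrays, against 1609 and 1249 on non-UV arrays. The context GTCCG had 2348 and 2349 on UV arrays, against 1545 and 1237 on non-UV arrays. TCT had effects of 1.04 as ATCTA and 0.99 as ATCTG, against 0.18 as GTCTA and 0.16 as GTCTG. CTC showed no such drop: ACTCA stood at 2.15, the highest of the 20 printed contexts, ACTCG at 1.77, GCTCA at 1.72 and GCTCG at 1.33. GCTCG had 5000 and 4704 on UV arrays, against 1487 and 1210 on non-UV arrays, which was above the UV values of every context of TCT, CCT and CCC. Lone TC had effects of 1.89 as ATCA and 1.47 as ATCG, against 0.25 as GTCA and 0.16 as GTCG.

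The base after TC went with differences in 6-4PP staining too. With A before the step, TC followed by A alone (ATCA) had an effect of 1.89, and TC followed by C and then A (ATCCA) lay below it by 0.19 (difference -0.19, SE 0.031, limma adjusted p = 9.80e-05). TC followed by T and then A (ATCTA) lay below it by 0.85 (difference -0.85, SE 0.032, limma adjusted p = 1.09e-10). Before G, where ATCG had 1.47, TC followed by C lay 0.32 above it (SE 0.027) and TC followed by T 0.49 below it (difference -0.49, SE 0.038). After a G the values with an added T did not pass, with GTCTA 0.08 below GTCA (difference -0.08, SE 0.038, limma adjusted p = 0.0743) and GTCTG 0.01 below GTCG (difference -0.01, SE 0.027, limma adjusted p = 0.851). These 200 context differences, of which 58.5% were higher and 21.5% lower for 6-4PP, were added after seeing the data. CTC with A after it exceeded CTC with G after it by 0.42 (SE 0.036), and lone TC did so by 0.40 (SE 0.029). For TCC the 3′ side went the other way, A under G by 0.13 (difference -0.13, SE 0.044, limma adjusted p = 0.0419) on the printed strand and by 0.14 (difference -0.14, SE 0.032) on the complement. The printed call was lost without any 1 array other than the first 6-4PP non-UV array, and that on the complement without the second 6-4PP non-UV array (-0.12). The printed value turned to 0.50 among probes printed once, 0.04 over identical pairs (both chosen after seeing the data) and 0.00 under quantile normalization.

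With the CPD antibody 6 of the 20 A-over-G differences were higher and 0 lower, where 39% and 0% were over all 241, so the share among triplets was no larger than that over all lone runs. All 6 were on the printed strand, and 0 passed with limma under quantile normalization. CCT with A after it exceeded CCT with G after it by 0.23 (SE 0.031, limma adjusted p = 0.00126), and TCT did so by 0.21 (SE 0.031, limma adjusted p = 0.00207). On the 5′ side A exceeded G by 0.21 (SE 0.029) for CTC, 0.12 (SE 0.030) for TCT and 0.11 (SE 0.031) for TCC. CTC had 0.12 (SE 0.036) on the 3′ side. The 5′ calls of TCT and TCC were lost without either CPD non-UV array or the first CPD UV array (limma adjusted p 0.0864 to 0.136), and the 3′ call of CTC without any CPD array or either 6-4PP non-UV array (0.0523 to 0.170). The contexts with the most CPD staining were ATCTA at 0.39, ACTCA at 0.37, ACCTA at 0.34 and GCCTA at 0.32, while GCTCG had 0.05 and GTCCG 0.01. ATCTA had medians of 2185 and 2046 on UV arrays, against 1220 and 1052 on non-UV arrays. GCTCG, bright with the 6-4PP antibody, had 1744 and 1621 on UV arrays, against 1243 and 1043 on non-UV arrays, close to probes with no step.

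A triplet on the printed strand stained more than the same triplet on the complement with the 6-4PP antibody in all 5 cases, by 0.88 (SE 0.023) for CTC, 0.71 (SE 0.022) for TCC, 0.34 (SE 0.020) for CCT, 0.33 (SE 0.028) for TCT and 0.13 (SE 0.017) for CCC. With the CPD antibody the difference was 0.19 (SE 0.023) for CTC, 0.16 (SE 0.028) for TCT and 0.11 (SE 0.020) for CCT, and it did not pass for TCC, at 0.06 (SE 0.022, limma adjusted p = 0.0566), or CCC, at -0.02 (SE 0.017, limma adjusted p = 0.414). Under quantile normalization the 6-4PP differences of TCT, CCT and CCC were -0.05, -0.09 and -0.03, none past the threshold. Printed triplets start only at even positions of the probe and complementary ones only at odd positions, so strand and exact position cannot be told apart. On the complement the Spearman correlation across probes between the 6-4PP effect and the start of the triplet, counted from the probe's 5′ end, was 0.54 for CTC, 0.42 for TCT, 0.39 for TCC, 0.23 for CCT and 0.07 for CCC. On the printed strand these were -0.01, -0.04, 0.02, -0.03 and -0.12. Over all complementary members the median effect did not climb steadily: it was 0.52 at base 13 (187 members), 1.00 at base 15 (18 members) and 0.27 at base 17 (25 members). Probes share most of their sequence, and the share of G and C moves with the flanks, so these correlations are descriptions only.

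Where everything outside the triplet was identical, CTC most often had the largest UV effect with the 6-4PP antibody. On the complement after an A, CTC and TCC led about equally often. All 5 triplets were printed in the same place of the same backbone on 144 backbones for the printed strand and 160 for the complement. With the 6-4PP antibody CTC had the largest UV effect of the 5 on 113 of the 144 printed backbones and TCC on 31, and TCT, CCT and CCC on 0. With a G before the triplet, CTC led on 62 of 64 backbones. With an A before it, CTC led on 51 of 80 and TCC on 29. Of the 160 complementary backbones CTC led on 100 and TCC on 48. There CTC led on 55 of 64 with a G before the triplet, but with an A before it CTC led on 45 of 96 and TCC on 44, with median effects of 0.93 for both. With the CPD antibody the lead was spread, with TCT first on 47 of 144, CTC on 45, CCT on 31, TCC on 16 and CCC on 5. Over identical pairs TCC lay below CTC by 0.53 for 6-4PP (difference -0.53, SE 0.029), against -0.25 between the class medians. TCT lay below TCC by 0.55 (difference -0.55, SE 0.031), against -0.89 between the class medians. Of the 40 differences over identical pairs 37.5% were higher and 57.5% lower for 6-4PP. The mix of A and G before the triplet differs between the classes, and the pairs hold it fixed. Its part in the gaps between paired and class values was not tested.

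The sets shown at the start are examples of such backbones, and CTC did not lead in all of them. On the backbone with A before the triplet, the 6-4PP intensity of TCC was 7677 and 8149 on UV arrays, against 1560 and 1360 on non-UV arrays. CTC had 5855 and 8112 on UV arrays, against 1580 and 1500 on non-UV arrays. TCT had 4539 and 3691 on UV arrays, against 1467 and 1304 on non-UV arrays, so it lay below both on each UV array. CCT had 2616 and 2983 on UV arrays, against 1559 and 1335 on non-UV arrays, and CCC 2428 and 2452 on UV arrays, against 1537 and 1172 on non-UV arrays. On the backbone with G before it, CTC had 5958 and 5555 on UV arrays, against 1894 and 1217 on non-UV arrays. On that backbone TCC had 2770 and 2520 on UV arrays, against 1549 and 1424 on non-UV arrays, and TCT 2354 and 2185 on UV arrays, against 1520 and 1228 on non-UV arrays. Of these backbones, which also differ in the place of the triplet, TCC lay above CTC on both UV arrays of the one with A, by little on the second, and below CTC on both of the one with G. On the complementary backbone with A, TCC had 4906 and 4645 on UV arrays, against 1595 and 1326 on non-UV arrays, and CTC 3917 and 3850 on UV arrays, against 1443 and 1260 on non-UV arrays. The no-step probe had 1863 and 1975 on UV arrays, against 1528 and 1545 on non-UV arrays. With the CPD antibody the printed set after A ran from 1501 to 2994 on UV arrays, and the highest value was 1 of the 2 UV arrays of CTC, which had 1812 and 2994.

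The single brightest members have to be read array by array. For each triplet and strand the member with the largest UV effect was picked for each antibody, among those with both UV arrays above both non-UV arrays. In 10 of these 20 picks the 2 UV arrays were more than 4-fold apart, and none of those passed, whereas 7 of the other picks did. The picks were made on the same values that limma tests, so a pass is no separate support for them. Shown are the first 25 bases of 3 that passed, each printed as 1 spot.
TCC, highest 6-4PP: gtatgcacatatgtgcaTCCgcgca
TCT, highest 6-4PP: atgcacaTCTatgtgcacgtgcgca
CTC on the complement, highest 6-4PP: atgcatatacgtGAGtgtgtgcgca
All 3 have A before the triplet on its own strand, but not every pick that passed did. The highest CPD member of printed TCT (GTCTA, limma adjusted p = 0.0416) had a G there. So did the highest 6-4PP member of CCT on the complement (GCCTG, limma adjusted p = 0.0357). The TCC member had 15132 and 12274 units of 6-4PP intensity on UV arrays, against 1357 and 1105 on non-UV arrays, an effect of 2.96 (limma adjusted p = 1.37e-06), while with the CPD antibody it had 1921 and 1625 on UV arrays, against 1179 and 1101 on non-UV arrays. The TCT member had 5762 and 5858 on UV arrays, against 1361 and 1102 on non-UV arrays, an effect of 1.73 (limma adjusted p = 1.53e-05). The CTC member had 9100 and 6157 on UV arrays, against 1341 and 1181 on non-UV arrays, an effect of 2.06 (limma adjusted p = 0.000210). By contrast the pick for TCC on the complement had 1843 and 57841 units of 6-4PP intensity on the 2 UV arrays and 1640 and 54575 with the CPD antibody, and 1 printed spot stands behind it. The lowest members of all were set by 1 bright non-UV array each, with CPD values of 1727 and 1828 on UV arrays against 1311 and 24062 on non-UV arrays for a CCC member, and 6-4PP values of 1986 and 2223 on UV arrays against 64217 and 1150 on non-UV arrays for a CCT member.

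The replicate arrays ranked the members alike after UV and not before it. With the 6-4PP antibody the 2 UV arrays correlated across the 912 printed members with Pearson 0.879 and Spearman 0.887, and the 2 non-UV arrays with -0.01 and -0.00. With the CPD antibody the UV arrays had Pearson 0.295 and Spearman 0.636, and the non-UV arrays 0.01 and -0.00. Across the 989 complementary members the UV arrays had Pearson 0.680 and Spearman 0.806 with the 6-4PP antibody, and 0.243 and 0.541 with the CPD antibody. Within single classes the Pearson correlation of the UV arrays ran from 0.18 (printed CCC) to 0.87 (printed TCC) with the 6-4PP antibody. With the CPD antibody it ran from 0.14 (TCC on the complement) to 0.51 (CTC on the complement). These are across probes that share most of their bases and are given as a description. Without UV neither antibody gave a ranking of the printed members that the second array repeated.

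Among the triplet classes, the antibodies differed most on CTC and TCC. For printed TCC the gap was wide only after an A. There the CPD and 6-4PP effects were 0.14 and 1.70 as ATCCA and 0.12 and 1.79 as ATCCG. After a G they were 0.02 and 0.18 as GTCCA and 0.01 and 0.24 as GTCCG. Relative to probes with no step, the UV effect with the CPD antibody was smaller than that with the 6-4PP antibody in 8 of the 10 member classes by limma's test of the difference, where 62.1% of the 248 classes were lower and 21.4% higher. Probe by probe, 675 members (35.5%) were lower and 2 (0.105%) higher, where 36.9% and 10.6% of all sequences were. The share of members that were lower was thus no larger than that over all sequences. By triplet and strand, 169 of 178 printed CTC members, 122 of 199 TCC, 55 of 168 TCT, 32 of 174 CCT and 8 of 193 CCC were lower. For lone CT the difference was -0.03 (SE 0.050, limma adjusted p = 0.582) and did not pass, and for CTC, which holds the same CT step, it was -1.52 (SE 0.048). CTC also holds TC, and lone TC went the same way as CTC. Probe by probe, 249 of 467 printed lone TC probes were lower, with a median difference of -0.93. The direction for the other triplets depends on the base line. Relative to the median of all probes on an array, 499 members were higher and 322 lower, and 6 classes were higher and 3 lower: the difference turned to 0.26 for TCT (limma adjusted p = 0.00374), 0.28 for CCT and 0.43 for CCC on the printed strand and to between 0.43 and 0.57 for the same triplets on the complement. Under quantile normalization 0 members passed this test of the difference with limma. Because the antibodies were diluted differently, a difference in effect compares stainings and not numbers of lesions.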

How the data were processed

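Per the file headers, a deposited file gives the Alexa 488 intensity of 180880 spots of 1 array on a linear scale, as scanned and after the authors' adjustment for the neighbourhood of each spot. Aligners or builds do not apply, and no source used here names the software. Antibody and UV state came from the labels. The adjusted intensity was averaged over the spots of a sequence (1100 of the 1901 members were printed once), and log2 values were centred on each array on the median of the 550 probes without a step. Class values were medians over at least 10 probes. The limma package 3.58.1 in R 4.3.3 fitted all 8 arrays (lmFit, eBayes), with Benjamini-Hochberg adjustment over all 122095 sequences, 248 classes, 63 class differences or 241 flank differences, and Python 3.11.15, numpy 2.4.6 and pandas 2.3.3 did the rest. With 2 arrays per group, the number of arrays limits the precision. In simulated data 0%, 0%, 16% and 78% of 200 changed probes were recovered at changes of 0.25, 0.5, 1 and 2, with 2 false calls.

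The members, triplets and comparisons were chosen with earlier results of these data known. Named probes were the highest member per triplet, strand and antibody among those with both UV arrays above both non-UV arrays, the lowest member per antibody and the no-step probe nearest the median. The backbones shown were chosen for the same triplets on 1 backbone, after the data had been seen and not for their values. Alternatives were the centring, quantile normalization, the unadjusted intensity, a filter on dim probes, single antibodies, blocks, leaving out each array, means, larger classes and a linear scale.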

Additional observations from a re-analysis of the deposited data

Results flagged for a closer look

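The UV effect differed between the antibodies, CPD minus 6-4PP, in 8 of the 10 triplet classes by limma's test of the difference itself. On the printed strand the difference was -1.52 for CTC (limma adjusted p = 6.18e-08), -1.41 for TCC, -0.36 for TCT, -0.34 for CCT and -0.20 for CCC (limma adjusted p = 0.00512). The value of TCC pools members with A and G before it. After a G its CPD and 6-4PP effects were 0.02 and 0.18 as GTCCA and 0.01 and 0.24 as GTCCG. On the complementary strand it was -0.84 for CTC, -0.75 for TCC and -0.19 for TCT. For CCT on the complement it was -0.11 (limma adjusted p = 0.0589) and for CCC on the complement -0.05 (limma adjusted p = 0.354), and neither passed. The direction holds relative to probes with no step. Relative to the array median the difference turned and passed for TCT, CCT and CCC, at 0.26, 0.28 and 0.43 printed and 0.43, 0.51 and 0.57 on the complement. The antibodies were used at different dilutions, and their part in the differences was not tested.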

How the results depend on the processing

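Without any 1 array, the counts past the threshold ran from 100 to 285 members for CPD, 940 to 1033 for 6-4PP and 559 to 674 for the antibody difference. They ran from 3 to 4 and 9 to 10 classes, with 8 classes for the antibody difference, from 32 to 43 and 60 to 62 class differences, and from 3 to 6 and 10 to 12 flank differences (CPD and 6-4PP in each pair). Where a group then had 1 array, it was assumed to vary like the others.

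Centred on the array median, 1833 members (all lower) and 10 CPD classes passed, and 1671 members for 6-4PP. CPD class effects became -1.11 (CCC), -1.08 (CCT), -1.10 (CTC), -1.10 (TCC) and -1.05 (TCT) on the complement and -1.13, -0.97, -0.91, -1.05 and -0.88 on the printed strand. For 6-4PP they became -1.69, -1.60, -0.89, -0.97 and -1.48 on the complement and -1.55, -1.25, -0.0067, -0.26 and -1.15 printed. The antibody difference became 0.57 and 0.43 for CCC (complement, printed), 0.51 and 0.28 for CCT, and 0.43 and 0.26 for TCT. With no centring, 1444 members and 10 classes passed for CPD, 1677 members for 6-4PP and 4 classes for the antibody difference. These shifts follow from the new base line.

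Under quantile normalization 38 members, 0 classes and 0 flank differences passed for CPD. For 6-4PP 181 members, 4 classes, 39 class differences and 1 flank difference passed, and for the antibody difference 0 members and 0 classes. Values that turned there were CPD printed TCC (-0.040), TCC minus CC (-0.035), CTC minus TC (-0.041) and CCT printed minus complement (-0.027). For 6-4PP they were TCC minus TTC on the complement (-0.014), printed minus complement for TCT (-0.047), CCT (-0.088) and CCC (-0.033), the 5′ flank of CCC (-0.0062) and the 3′ flanks of CCT (-0.0097) and TCC (0.0017), and the antibody difference of TCT (0.044). The cause was not tested.

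On the intensity before adjustment 119 members passed for CPD. With the dimmest 25% of probes left out, which kept 384 members, 107 members, 19 class differences and 2 flank differences passed for CPD. For 6-4PP 324 members, 6 of 6 classes, 25 of 33 class differences and 2 of 4 flank differences passed, and 286 members for the antibody difference. CTC minus CCT turned to -0.10 for CPD, and on the complement TCC minus CTC turned to 0.14, TCC minus TC to -0.13 and CTC minus TC to -0.27 for 6-4PP. Each antibody fitted alone gave 3 CPD classes and 9 6-4PP flank differences, the mean over probes 3 CPD classes, the linear scale 2 CPD classes and 3 CPD flank differences, and classes of at least 20 probes 10 CPD flank differences. CTC minus TTC (6-4PP, printed) was 0.17 with the mean and 0.28 with the mean of flank contexts. Among probes printed once, TCC minus TTC on the complement was -0.046 and the 3′ flank of TCC 0.50. Over identical pairs 38 of 40 class differences passed for 6-4PP, and the 3′ flank of TCC was 0.044. The flank contexts, the probes printed once and the identical pairs were chosen after seeing the data, as was the limit to runs starting at bases 7 to 13, which moved no count by over 1.5 times.

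With the replicate number as a block, 278 members and 4 classes passed for CPD and 1071 and 9 for 6-4PP. The numbers were not taken to pair the arrays, since same-numbered UV and non-UV arrays of 1 antibody had deviations that correlated at 0.00 for both antibodies. A block for the slide was not run, as the files name no slide. Limiting runs to the first 30 bases left the members as they were, since all start by base 20.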
